A study of Mus musculus with 3 samples.

Results

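The genes described here are 5 ligands of the bone morphogenetic protein (BMP) family, Bmp2, Bmp4, Bmp5, Bmp6 and Bmp7, and 5 receptors through which BMPs signal, Bmpr1a, Bmpr1b, Bmpr2, Acvr1 and Acvrl1. They were taken by symbol, and every array probe whose RefSeq accession belongs to one of them was used. All 10 genes had a probe, with 13 probes in all, of the 21153 genes and 28025 probes that could be named. Of these, 12 probes and all 10 genes were bright enough to be tested, among 14710 genes tested.

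RNA from Hopx-/- embryoid bodies grown with XAV939 (12.5 µM) was set against RNA from Hopx+/- embryoid bodies on 3 two-colour Agilent arrays, at day 8 of cardiac differentiation. Embryonic stem cells form such bodies when they differentiate in clumps. The stem cell lines came from blastocysts of each genotype, and the labels do not say how many lines were used. XAV939 inhibits tankyrase, which stabilises axin and lowers β-catenin, and Hopx is a small homeodomain protein without DNA binding of its own. The 2 cultures differed in genotype and in inhibitor at once, so the part of each cannot be told apart. The differentiation medium as the labels list it holds VEGF, bFGF and FGF10 and names no BMP ligand, and the labels do not say whether the heterozygous cultures received the solvent of the inhibitor.

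BMPs are secreted dimers of the TGF-β superfamily. They assemble type I receptors (here Bmpr1a, Bmpr1b, Acvr1 and Acvrl1) with a type II receptor (here Bmpr2), whose kinase activates the type I partner, which then phosphorylates SMAD1, SMAD5 and SMAD9. In the early mouse embryo Bmp4 is needed for mesoderm, Bmp2 from endoderm and mesoderm acts on heart formation, and Wnt and BMP signals act together at the primitive streak.

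Each array gives, for a probe, a log2 ratio of the null culture with inhibitor over the heterozygous culture, so a negative ratio means a lower level in the null culture. On every array the labels assign Cy5 to the null RNA. Across genes, however, the Cy5 to Cy3 ratios of replicates 1 and 2 correlated at 0.97, and those of replicate 3 correlated with them at -0.90 and -0.92. The ratios of replicate 3 were turned round, which gives them the sign of the authors' processed values, and the direction is likely rather than settled. Hopx itself was lower in the null cultures on the 3 arrays so turned (-2.65, -2.75 and -2.73; adjusted p = 2.05e-07, limma), though the deleted stretch and the place of its probe were not compared here. Were the direction the opposite one, every sign below would turn, and the 9 lower and 1 higher genes would be 9 higher and 1 lower. From 61.4% to 68.0% of spots were well above background in Cy3 and from 56.6% to 66.6% in Cy5, and the number of arrays limits the precision.

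All 5 ligand genes and 4 of the 5 receptor genes were lower in the null cultures with inhibitor. Only Bmpr1b was higher, and it entered the test through the null signal alone. These calls used limma's moderated test with adjustment over 14710 genes at a threshold of 0.05. By that rule 33.0% of all genes were lower, 31.5% higher and 64.5% changed in either direction, so that a call alone sets few genes apart. The median ratio of the 10 genes was -1.11, against -0.011 for all genes tested. Of the 10, 6 were called and lower by 1 or more on the log2 scale, as 9.54% of all genes were, and 0 were higher by 1 or more, as 7.78% of all genes were. The intensities of the 2 cultures did not overlap over the 3 arrays for any of the 10 genes, which held for 68.1% of all genes. In RNA from whole cultures, fewer cells of a type and less RNA per cell cannot be told apart.

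**Figure D1:**
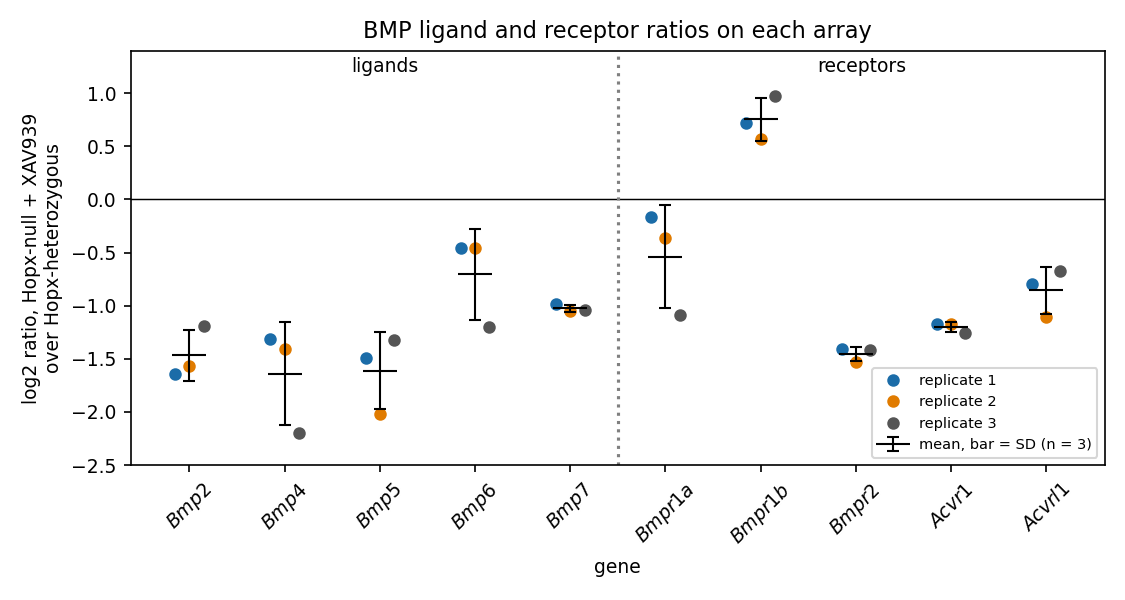
Log2 ratio of the Hopx-null culture with XAV939 over the Hopx-heterozygous culture (vertical axis) for each of the 10 genes, with a point per array and the mean and SD of the 3 arrays. Every point lies below 0 for 9 genes and above 0 for Bmpr1b, and replicate 3 stands well below the other arrays for Bmp4, Bmp6 and Bmpr1a.

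**Figure D2:**
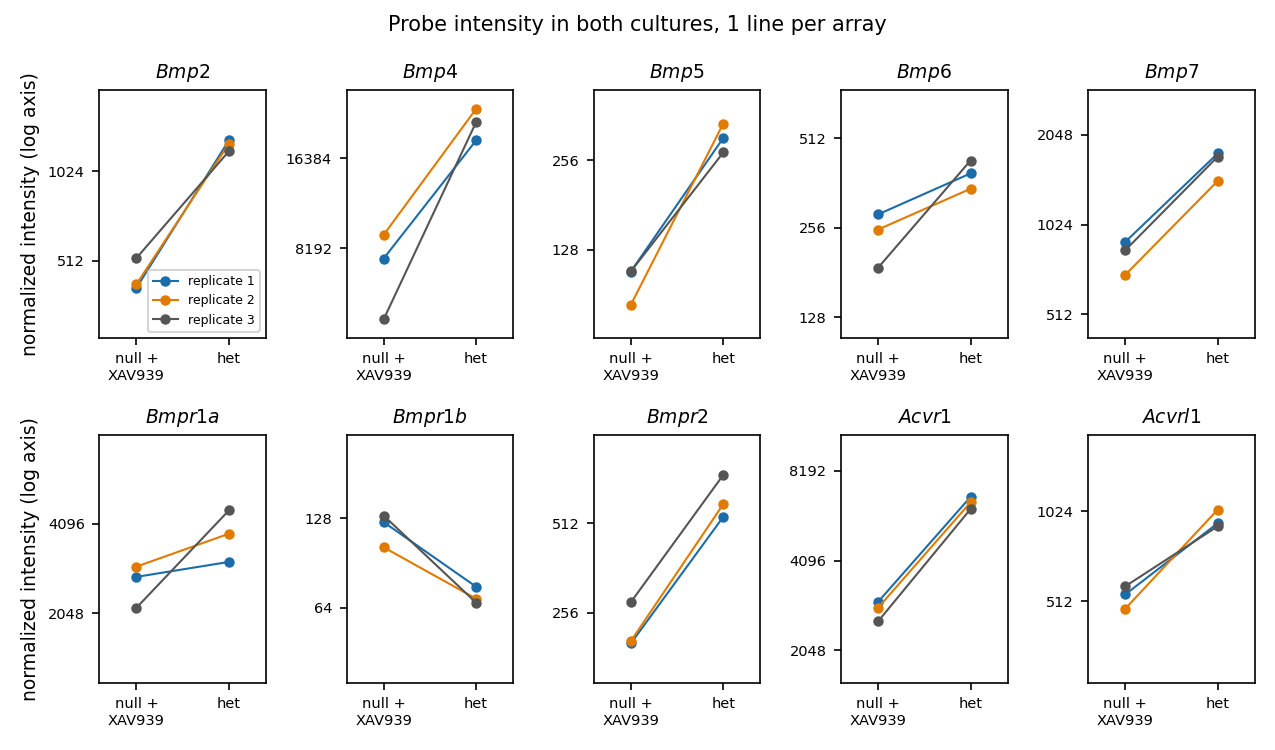
Normalized probe intensity (log axis, each panel with its own range of equal height) in the Hopx-null culture with XAV939 and in the heterozygous culture, with a line per array. Lines run upward toward the heterozygous culture for 9 genes and downward for Bmpr1b; intensities of different genes come from different probes and are not comparable.

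Bmp4, a ligand needed for mesoderm formation, had the lowest mean ratio of the 10. Its probe read 7562, 9076 and 4723 normalized intensity units in the null cultures of replicates 1 to 3, against 18842, 24042 and 21691 in the heterozygous cultures. The heterozygous cultures were all higher than any null culture, and the null culture of replicate 3 was the lowest. Bmp4 was 3.12-fold lower, with a mean ratio of -1.64 ± 0.49 (SD, n = 3 arrays here and below; adjusted p = 3.77e-05, limma). By ratio it ranked at percentile 3.42 of all genes tested, counted from the lowest. A second Bmp4 probe, A_55_P1959022, was not well above background in either culture on any array and gave no ratio of use.

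Bmp5, a close relative of Bmp6 and Bmp7 by sequence, was dim but well above background in both cultures on all arrays. It read 108, 83.7 and 108 in the null cultures and 304, 340 and 272 in the heterozygous cultures. The lowest heterozygous reading lay well over the highest null reading. Bmp5 was 3.06-fold lower (-1.61 ± 0.36; adjusted p = 1.54e-05, limma). It did not pass when local backgrounds that the scanner software marks as outliers were kept (-0.77, adjusted p = 0.0545, limma), and its ratio was -2.63 with the scanner software's own log ratio.

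Bmp2, which acts on cardiac mesoderm, read 416, 427 and 523 in the null cultures and 1300, 1267 and 1195 in the heterozygous cultures. All 3 heterozygous cultures lay above the null ones, and replicate 3 showed the smallest gap. Bmp2 was 2.77-fold lower (-1.47 ± 0.24; adjusted p = 9.87e-06, limma).

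Bmp7, a ligand with broad roles in kidney, eye and heart cushions, read 896, 695 and 840 in the null cultures and 1775, 1435 and 1732 in the heterozygous cultures. Its ratio was nearly the same on each array, at -0.99, -1.05 and -1.04. Bmp7 was 2.04-fold lower (-1.03 ± 0.034; adjusted p = 2.55e-05, limma), and its SD was well below the median SD of all genes, 0.17.

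Bmp6, which also regulates iron balance through the liver, had the smallest fall among the ligands. It read 284, 253 and 188 in the null cultures and 390, 346 and 431 in the heterozygous cultures. Most of its fall came from replicate 3, with ratios of -0.46, -0.45 and -1.20. Bmp6 was 1.63-fold lower (-0.70 ± 0.43; adjusted p = 0.00334, limma), and without replicate 3 the ratio was -0.46 (adjusted p = 0.0011, limma). It did not pass with median centring (-0.65, adjusted p = 0.106, limma) or with those marked backgrounds left in (-0.52, adjusted p = 0.162, limma).

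Among the receptors, Bmpr2, the type II receptor that BMPs share, had the lowest ratio. It read 202, 206 and 278 in the null cultures and 538, 593 and 744 in the heterozygous cultures. Both cultures read highest on replicate 3, and the ratio stayed level at -1.41, -1.53 and -1.42. Bmpr2 was 2.74-fold lower (-1.45 ± 0.065; adjusted p = 3.68e-06, limma). With the values the authors deposited, its ratio averaged -1.14 ± 0.25.

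Acvr1, the type I receptor also named ALK2, through which BMP6 and BMP7 signal, read 2978, 2845 and 2562 in the null cultures and 6705, 6430 and 6104 in the heterozygous cultures. The readings of each culture lay close together on the 3 arrays. Acvr1 was 2.30-fold lower (-1.20 ± 0.046; adjusted p = 1.06e-05, limma). A second, dimmer Acvr1 probe, A_55_P2102693, gave 1.88-fold (-0.91 ± 0.11), so both probes were lower on every array but by different amounts.

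Acvrl1, or ALK1, is a type I receptor known mainly from endothelium, where it binds BMP9 and BMP10. It read 539, 483 and 574 in the null cultures and 935, 1038 and 913 in the heterozygous cultures. Acvrl1 was 1.81-fold lower (-0.86 ± 0.22; adjusted p = 0.000203, limma). In the same cultures 31.5% of all genes were higher and 33.0% lower. Of 10 endothelial markers 6 were higher and 2 lower, with a median ratio of 0.48. Among them the junction gene Cdh5 rose (1.34 ± 0.24) and the VEGF receptor gene Flt1 fell (-1.20 ± 0.18). The other lower one, the angiopoietin receptor gene Tek (-0.34 ± 0.28), did not pass in 7 of 14 other ways of processing. Of the higher ones, Esam did not pass in 4 of the 14 and Kdr in 2, and a second Kdr probe gave -0.16. With the marked backgrounds left in, 3 of the 10 endothelial markers were higher and 1 lower. The summed intensity of these markers ranged from 29212 to 35077 in the null cultures and from 32288 to 34878 in the heterozygous cultures, all 10 were well above background on at least 1 array in each culture, and their part in the Acvrl1 result was not tested.

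Bmpr1a, or ALK3, the type I receptor needed for mesoderm in the mouse embryo, had the smallest fall. It read 2712, 2936 and 2135 in the null cultures and 3045, 3785 and 4532 in the heterozygous cultures. The highest null reading and the lowest heterozygous reading were close, and the ratios of -0.17, -0.37 and -1.09 spread widely. Bmpr1a was 1.45-fold lower (-0.54 ± 0.48; adjusted p = 0.0183, limma). Without replicate 3 the ratio was -0.27 (adjusted p = 0.0262, limma). It failed to pass with median centring (-0.30, adjusted p = 0.509), with those marked backgrounds left in (-0.47, adjusted p = 0.18) or with the scanner software's log ratio (-0.51, adjusted p = 0.0633), all by limma. In the authors' processed values the 3 ratios lay closer together, at -0.54, -0.60 and -0.80.

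Bmpr1b, or ALK6, a type I receptor known from cartilage condensations and the ovary, was the one gene of the 10 with a higher level in the null cultures. Its brighter probe, A_66_P136389, read 124, 102 and 130 in the null cultures and 75.3, 68.6 and 66.6 in the heterozygous cultures. On all 3 arrays the null signal was well above background and the heterozygous signal was not, so only a bound can be given. The gene entered the test through the null signal alone, so a higher null level was built into its being tested, and its adjusted p is given as a description. By this processing Bmpr1b was at least 1.67-fold higher in the null cultures (measured means 6.89 and 6.13 on the log2 intensity scale for null and heterozygous cultures; adjusted p = 0.000366, limma). The bound sets the null mean against the higher, on each array, of the probe's own heterozygous signal and the dimmest signal well above background. A second probe, A_52_P586944, was above background in the same cultures only and gave at least 1.52-fold. These bounds hold for this processing only, as the mean ratio of the brighter probe was 0.75 here and 0.56 ± 0.21 in the authors' processed values. Bmpr1b failed to pass with those marked backgrounds left in (0.38, adjusted p = 0.226, limma), and it was not tested where both cultures had to be above background.

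Promoter sequences are shown for the ligand and the receptor with the lowest ratios, Bmp4 and Bmpr2, and for Bmpr1b, whose sign was opposite. They are the 250 bases before the RefSeq gene start, 5′ to 3′ on the strand of the gene, on build GRCm38.p6. RefSeq promoters were at hand for 7 of the 10 genes, in 9 windows, since Bmpr1b has 3 starts. Capitals mark matches, on either strand, to GGCGCC, a GC-rich word bound by BMP SMADs, to the TCF/LEF words CTTTGAA or CTTTGAT or CTTTGTA or CTTTGTT, to the GATA words AGATAA or TGATAA, and to the TATA word TATAAA.
Bmp4, chr14:46390670-46390919, minus strand: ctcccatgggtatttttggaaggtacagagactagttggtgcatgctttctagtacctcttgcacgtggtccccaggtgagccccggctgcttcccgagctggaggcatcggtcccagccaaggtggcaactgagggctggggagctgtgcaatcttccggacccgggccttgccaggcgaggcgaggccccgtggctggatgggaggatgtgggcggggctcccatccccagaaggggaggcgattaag
Bmpr2, chr1:59764029-59764278, plus strand: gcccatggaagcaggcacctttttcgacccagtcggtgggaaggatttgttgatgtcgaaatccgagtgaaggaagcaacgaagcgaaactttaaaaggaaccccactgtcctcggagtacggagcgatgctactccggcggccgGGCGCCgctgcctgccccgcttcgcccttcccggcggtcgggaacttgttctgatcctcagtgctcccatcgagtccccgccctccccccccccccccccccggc
Bmpr1b, chr3:141931421-141931670, minus strand: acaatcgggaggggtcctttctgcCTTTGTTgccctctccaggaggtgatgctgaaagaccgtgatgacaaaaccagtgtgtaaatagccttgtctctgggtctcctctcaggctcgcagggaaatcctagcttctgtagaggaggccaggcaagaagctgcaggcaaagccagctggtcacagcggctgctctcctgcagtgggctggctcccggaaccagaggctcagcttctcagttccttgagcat
Bmpr1b, chr3:141982265-141982514, minus strand: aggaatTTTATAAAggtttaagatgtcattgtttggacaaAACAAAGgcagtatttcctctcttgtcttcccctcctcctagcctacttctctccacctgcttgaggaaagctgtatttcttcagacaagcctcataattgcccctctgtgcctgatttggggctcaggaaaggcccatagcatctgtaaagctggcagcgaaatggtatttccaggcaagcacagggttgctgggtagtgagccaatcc

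The Bmp4 window held none of these words. The Bmpr2 window held GGCGCC once, starting 105 bases before the gene start, and the Bmpr1a window held it once as well. That word was in 9.59% of 32851 windows of the same length over all genes. Each of the 3 Bmpr1b windows held a TCF/LEF word, but 2 of the windows overlap and share 1 match, and 14.8% of all windows hold such a word. The second Bmpr1b window printed also held the TATA word on both strands, in overlapping positions (12.4% of all windows). None of the 9 windows held a GATA word, against 16.6% of all windows. These matches are letters in a window and were not set against any binding data. The receptor windows also differed in CpG content, with 1, 5 and 5 CpG dinucleotides for the Bmpr1b starts, against 22 for Bmpr2, 36 for Bmpr1a and 46 for Acvr1. The median over all windows was 6, with quartiles of 2 and 16. Among the ligands the windows held 11 for Bmp4, 4 for Bmp5 and 22 for Bmp6.

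Ordered by mean ratio, the 10 genes ran Bmp4, Bmp5, Bmp2, Bmpr2, Acvr1, Bmp7, Acvrl1, Bmp6, Bmpr1a and Bmpr1b. The ranges over the 3 arrays overlapped between neighbours in this order, except between Bmpr2 and Acvr1, between Acvr1 and Bmp7, and between Bmpr1a and Bmpr1b. The ratios are within probes, so this is an order of differences and not of levels. The smallest of those gaps was 0.17 ± 0.04, by which Bmp7 lay above Acvr1, with 0.18, 0.13 and 0.21 on the 3 arrays. That gap did not hold for the second Acvr1 probe, whose mean of -0.91 lay above the -1.03 of Bmp7. In the authors' processed values the Acvr1 range (-1.36 to -0.99) overlapped those of Bmp7 (-1.11 to -0.88) and Bmpr2 (-1.42 to -0.95). With 3 arrays an exact test of such a gap cannot go below a 2-sided p of 0.25, so none was run.

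The arrays differed by gene in the plot of ratios. Bmp7, Acvr1 and Bmpr2 had SDs of 0.034, 0.046 and 0.065, the smallest of the 10. Bmp4, Bmp6 and Bmpr1a were lower on replicate 3 than on the other arrays, and the distance between them hardly moved, with Bmp4 below Bmpr1a by 1.15, 1.04 and 1.11 and below Bmp6 by 0.86, 0.95 and 1.00 on replicates 1 to 3. Bmp2, Bmp5 and Acvrl1 went the other way, with their smallest falls on replicate 3. Replicate 3 is the array that was turned, so a probe's dye bias would enter it with the opposite sign. As the only array turned, it cannot be told apart from a dye effect, so a dye term in the fit is no check on dye bias. With that term all 10 genes passed in the same direction, Bmpr1b again through the null signal alone. The ratios were then -1.78 for Bmp4, -0.83 for Bmp6, -0.68 for Bmpr1a and -1.40 for Bmp2.

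Known target genes of BMP signalling were lower in the null cultures too, with a median ratio of -1.11. Of 13 tested genes 12 were lower and 0 higher, against 33.0% and 31.5% of all genes. Tbx3, a T-box factor of the heart's conduction system, had the lowest ratio (-3.16 ± 0.24). The homeobox gene Msx2 (-2.35 ± 0.31), the inhibitor of differentiation Id2 (-2.29 ± 0.19) and the inhibitory SMAD gene Smad6 (-1.82 ± 0.045) followed, each lower on all 3 arrays. Id1 (-0.74 ± 0.24) and Id3 (-0.54 ± 0.067), named after their values were seen, had smaller falls, and neither passed with median centring. Bmper, which encodes a BMP-binding secreted protein, lay at -0.053 ± 0.20 (adjusted p = 0.7, limma).

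Of the 6 SMAD transducers and their ubiquitin ligases, 1 was higher and 2 lower, with a median of -0.063. Over all genes 31.5% were higher and 33.0% lower. Smad9, the receptor SMAD that BMPs also induce, was lower (-1.94 ± 0.17), as was the ligase gene Smurf1 (-0.74 ± 0.08), and Smad5 was higher (0.49 ± 0.29). With the marked backgrounds left in, Smad9 did not pass, and its ratio ranged from -3.33 to -0.99 over 14 other ways of processing. Smad5 did not pass in 4 of the 14, among them those without replicate 1 or replicate 2. Smad1 (0.059 ± 0.22) and the common partner Smad4 (0.040 ± 0.39) did not pass, though Smad4 did without replicate 3.

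The extracellular antagonists and modulators, which bind BMPs or cut their inhibitors, went both ways, as did all genes (31.5% higher and 33.0% lower). Of 18 tested antagonists and modulators 4 were higher and 6 lower, with a median of -0.14. Of the 4 higher genes, 1 was tested through the null signal alone. Where both cultures had to be above background, 1 gene was higher and 5 lower. With median centring 1 was higher and 4 lower, and with the marked backgrounds left in 0 were higher and 3 lower. Follistatin, Fst (-1.90 ± 0.23), and the transmembrane BMP binder Crim1 (-1.72 ± 0.41) were lower. Cerberus, Cer1, which binds Nodal and BMPs, was higher (1.13 ± 0.24, with a heterozygous signal well above background on 2 arrays of 3), but did not pass with the marked backgrounds left in. Noggin, Nog, was lower (-0.68 ± 0.46), and chordin, Chrd, lay at 0.11 ± 0.14 (adjusted p = 0.385, limma). Nog and Chrd were named after their values were seen, as the best known of the antagonists, and Nog passed neither in the authors' values nor with the marked backgrounds left in.

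The wider superfamily showed no common direction. For its lists below, the shares over all genes were 31.5% higher and 33.0% lower. Of 17 further BMP and GDF ligands 8 could be tested, with 3 higher and 4 lower and a median of -0.17. Of the 4 lower genes, Gdf6 was tested through the heterozygous signal alone, so a lower null level was built into its being tested. Where both cultures had to be above background, 3 were higher and 3 lower. Gdf6 did not pass in 4 of 13 other ways of processing, and Bmp8b in 6 of 14. Gdf3 (2.00 ± 0.42) and Gdf1 (1.58 ± 0.16), which act with Nodal in the early embryo, were higher, as was Gdf15 (0.53 ± 0.16), a stress-induced ligand, and the oocyte ligand Gdf9 was lower (-0.93 ± 0.055). A second Gdf3 probe gave 0.64. Gdf15 passed neither with median centring, nor in the authors' values, nor with the marked backgrounds left in, and Gdf9 did not pass in the last of these. Of 6 further tested receptors of the superfamily, for activins, TGF-β or anti-Müllerian hormone, 0 were higher and 2 lower. The lower ones were Tgfbr2 (-0.68 ± 0.13), the TGF-β type II receptor, and Amhr2 (-0.48 ± 0.27), the type II receptor of anti-Müllerian hormone. Acvr2a (-0.34 ± 0.33) and Acvr2b (0.21 ± 0.047), activin type II receptors that BMPs also use, did not pass (adjusted p = 0.0506 and 0.0875, limma). Acvr2a was called lower in 6 of 14 other ways of processing, and Acvr2b higher in 2 of 14. Neither Tgfbr2 nor Amhr2 passed with median centring. Of 4 tested co-receptors, Tgfbr3, or betaglycan, was 9.50-fold lower (-3.25 ± 0.30). The iron regulator Hjv (0.36 ± 0.19) and endoglin, Eng (0.34 ± 0.25), were higher, and neither passed with median centring or without replicate 2. Hjv was well above background on 2 arrays in the null culture and 1 in the heterozygous culture. It did not pass in 4 of 13 other ways of processing, and Eng in 7 of 14, among them those without any 1 replicate.

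**Figure D3:**
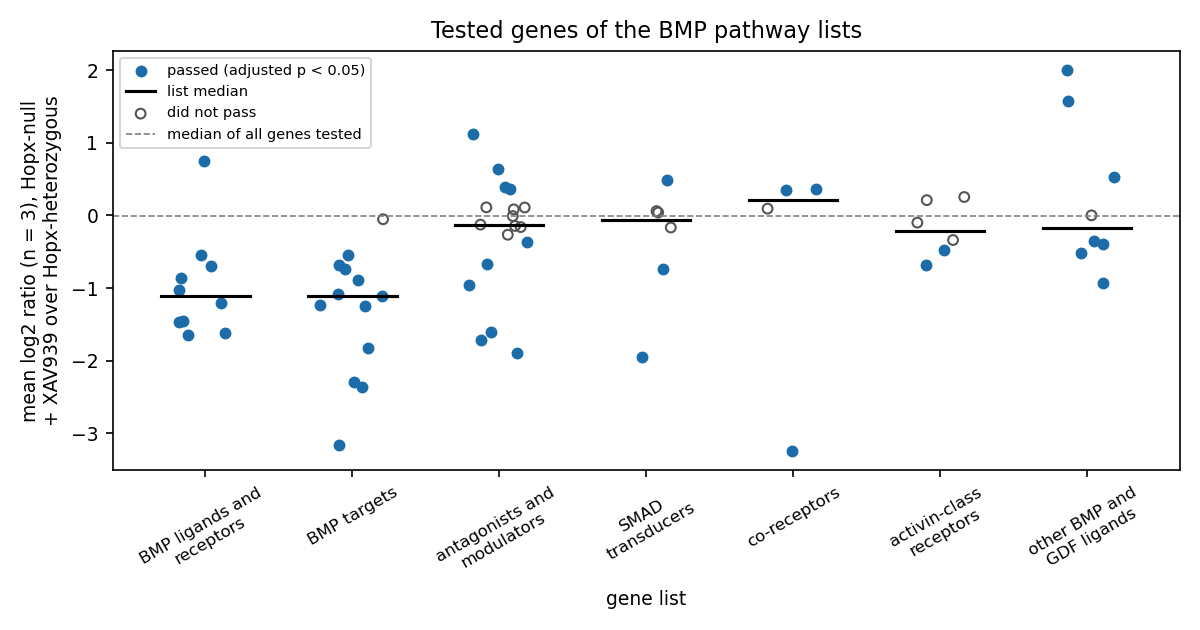
Mean log2 ratio of the Hopx-null culture with XAV939 over the heterozygous culture for each tested gene of 7 lists, with filled points for genes that passed and open points for genes that did not, and a bar at each list's median. The BMP ligands and receptors and the BMP targets have medians of -1.11 each, and the other lists have medians between -0.22 and 0.22.

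Embryoid bodies hold several cell types, and marker lists of most of them differed between the cultures beside the BMP genes. Over all genes 31.5% were higher and 33.0% lower. All 17 tested endoderm markers were lower, with a median ratio of -3.46, among them Cubn (-5.54 ± 0.61), an endocytic receptor, and Rbp4 (-5.18 ± 0.36), the retinol carrier. A second Cubn probe gave -2.97. The summed intensity of the 17 markers ranged from 11882 to 19810 in the null cultures and from 193563 to 204880 in the heterozygous cultures. Apoa4 had a null signal not well above background on every array, so it was tested through the heterozygous signal alone. All 15 cardiomyocyte markers were lower (median -1.52), led by the myosin genes Myl3 (-2.70 ± 0.071) and Myh7 (-2.63 ± 0.36), with sums from 72288 to 83365 in the null cultures and from 264736 to 294522 in the heterozygous cultures. Of 10 mesenchyme markers 5 were lower and 1 higher (median -0.50), led by Col1a1 (-2.81 ± 0.38), a collagen gene, and Pdgfra (-2.49 ± 0.40), a growth factor receptor gene. The higher one was the homeobox gene Prrx1 (0.52 ± 0.16), which did not pass in 3 of 13 other ways of processing. Their sums ran from 17749 to 28404 in the null cultures and from 34560.5 to 50165 in the heterozygous cultures. Of 12 pluripotency and epiblast markers 10 were higher and 2 lower (median 1.65). Fgf5 (3.99 ± 0.40), an epiblast growth factor, and Dnmt3b (3.83 ± 0.16), a DNA methyltransferase, had the highest ratios, and the 2 lower genes were Klf4 (-2.55 ± 0.10) and Zfp42 (-1.19 ± 0.23), both known from naive stem cells. The sums ran from 118450 to 145310 in the null cultures and from 30432 to 37188 in the heterozygous cultures. Of 7 tested neural markers 5 were higher and 0 lower (median 1.56), led by the tubulin gene Tubb3 (3.48 ± 0.25) and the SOX factor Sox3 (3.38 ± 0.11). Their sums ran from 17039.9 to 18632 in the null cultures and from 2427 to 2997 in the heterozygous cultures. Sox1 (0.32 ± 0.31) and Dcx (0.070 ± 0.15) did not pass. Pax6, Hoxb1 and Neurog2 could not be tested, and a second probe of Zic1, 1 of the 5 higher neural genes, gave -0.74. All tested markers of these last 4 lists were above background on at least 1 array in both cultures. The part of these cell types in the BMP ligand and receptor ratios was not tested.

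**Figure D4:**
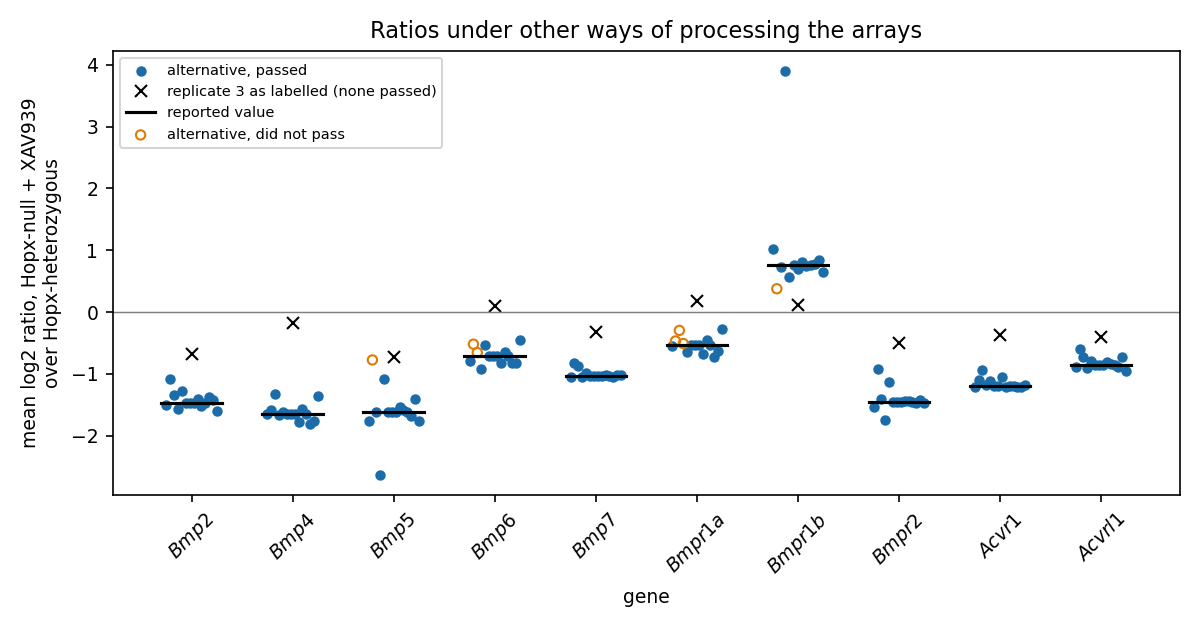
Mean log2 ratio of the Hopx-null culture with XAV939 over the heterozygous culture for the 10 genes under each other way of processing, with the reported value as a bar. Open points did not pass and belong to Bmp5, Bmp6, Bmpr1a and Bmpr1b, and crosses give the ratio with replicate 3 used as labelled, where no gene passed. The highest Bmpr1b point, 3.90, is the scanner software's log ratio, for which the heterozygous signal is at background.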

How the data were processed

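Levels of RNA were measured on 3 two-colour Agilent arrays of probe design 026655 (mouse build mm9, per the file headers). The deposited spot and background signals are median pixel intensity values, which the authors extracted with Agilent Feature Extraction (11.5.1.1 per the file headers, 8.5.1.1 per the submitters' processing notes). The deposited log10 ratio sets Cy5 over Cy3, after background subtraction and dye normalization by that software per the file headers. The authors also deposited processed values, taken to be log2 ratios because they track the scanner's (r across genes 0.94, 0.98 and -0.97 with Cy5 over Cy3). No source used here gives their normalization or centring (column medians 0.086, -0.08 and 0.053), and the sign of the third column is that of Cy3 over Cy5.

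Background correction of the median signals (normexp, offset 50) and loess within arrays used limma 3.58.1 (R 4.3.3), with control and outlier spots at weight 0. Local backgrounds marked as outliers were set to the median of the unmarked ones in that channel. Intensities per culture are these values after Aquantile scaling between arrays. Of 39429 probes, 28025 were named through RefSeq accessions. Testing required a signal well above background on each array, in either channel, and each gene is represented by the brightest probe that met this. limma's moderated test (8.65 degrees of freedom) compared the mean ratio with 0, with Benjamini-Hochberg adjustment over 14710 genes, and was checked on simulated ratios. The labels call the arrays biological replicates without naming separate lines, so p-values measure the spread between these arrays. Replicate 1 lay on one slide and replicates 2 and 3 on another.

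The 10 genes, the lists and the turning of replicate 3 were chosen with earlier results of these data known. Named beside the 10 genes were up to 4 genes per BMP list and 2 per marker list with the largest called ratios of one sign on all arrays, plus called genes of a direction held by 3 or fewer genes in a list; 1 gene that this rule names is not reported here. The alternatives were other background handling, centring, ratio sources, filters, probe summaries, a dye term, separate channels, slide means and leaving out each replicate.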

Additional observations from a re-analysis of the deposited data

How the results depend on the processing

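Over 14 other ways of processing with replicate 3 turned (13 for Bmpr1b), no ratio of the 10 genes changed sign. Many of these ways could not have changed a sign. The filters and the separate channels left the ratios of these genes as they were. Each gene also had the same sign on every array, so leaving out a replicate, slide means or a dye term could not reverse it. Bmp2, Bmp4, Bmp7, Bmpr2, Acvr1 and Acvrl1 passed limma's test in all 14. With marked local backgrounds kept, 6 of the 10 genes were lower and 0 higher (7 and 0 at an unadjusted p below 0.05). Bmp5 (-0.77), Bmp6 (-0.52), Bmpr1a (-0.47) and Bmpr1b (0.38) did not pass, and over all genes 2662 were higher and 2255 lower. With median centring Bmp6 (-0.65) and Bmpr1a (-0.30) did not pass. All genes then gave 3034 higher and 2019 lower, or 60.0% higher among the called against 48.9%, and the median ratio of all genes moved by 0.11. With the scanner software's log ratio Bmpr1a (-0.51) did not pass. With probes above background in both channels 0 of the 10 were higher, since Bmpr1b was not tested. With replicate 3 as labelled limma called 0 higher and 0 lower, among the 10 and over all genes, with 0 of the 10 and 13 higher and 27 lower over all genes at an unadjusted p below 0.05. The ratios were then -0.67 for Bmp2, -0.17 for Bmp4, -0.73 for Bmp5, -0.33 for Bmp7, -0.51 for Bmpr2, -0.36 for Acvr1, -0.41 for Acvrl1 and 0.11 for Bmpr1b, and the sign turned for Bmp6 (0.095) and Bmpr1a (0.18). Causes of these changes were not tested.

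Leaving out each replicate in turn kept the 9 lower calls, with Bmpr1a from -0.73 to -0.27 and Bmp6 from -0.83 to -0.46. Bmpr1b stayed higher there and with slide means, but it was tested through the null signal alone. The count of BMP targets lower was 10 with median centring, 11 with marked backgrounds kept and 12 otherwise with replicate 3 turned. A slide correlation could not be estimated from 3 arrays, so slide as a random block was not run. The mean of each slide as 1 of 2 replicates, chosen after seeing the data, kept the 9 lower calls. That fit was no stricter than the main one, so it is no check on the shared slide. Over all genes it called 4785 higher and 5012 lower, against 4637 and 4850. The adjusted p of Bmp2 was 7.36e-11 with slide means and 9.87e-06 in the main fit (both limma). Replicates 2 and 3, which share a slide, gave -1.38 for Bmp2 and -1.80 for Bmp4. No paired analysis was possible because each array already sets both cultures against each other in 1 ratio. Dim signal limits Bmpr1b to a bound that holds for the processing used.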

Other observations

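In the processed values that the authors deposited for the same probes, the 5 ligands and 4 receptors were lower and Bmpr1b higher on all 3 arrays. Bmp4 lay at -1.50, -1.46 and -1.89 on replicates 1 to 3 and Bmp2 at -1.24, -1.34 and -1.25 on the log2 scale. Bmp5 lay at -0.58, -1.46 and -1.19, a mean of -1.08 ± 0.45. Bmp6 ranged from -0.16 to -1.05 and Bmp7 from -0.88 to -1.11. Among the receptors, Bmpr2 lay at -0.95, -1.42 and -1.04, Acvr1 at -1.02, -0.99 and -1.36, Acvrl1 at -0.86, -1.13 and -0.37, and Bmpr1b at 0.49, 0.39 and 0.80. The order of the genes differed from the one above in places, with Acvr1 (-1.12) next to Bmpr2 (-1.14).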
